A study of Homo sapiens with 24 samples.

Results

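The type I interferon receptor and the kinases and transcription factors that signal from it and from related cytokine receptors were followed as 9 transcripts: the receptor chains IFNAR1 and IFNAR2, the Janus kinases JAK1, JAK2 and TYK2, and the signal transducers STAT2, STAT3, STAT4 and STAT5A. They were taken by gene symbol from 38735 named genes, and all 9 passed the filter on low values, a mean of at least 10 normalized counts over 24 libraries, which left 13900 genes for testing. The RNA came from the monocytic leukaemia line THP-1, a human cell line in wide use, and every group was first exposed to 100 nM of the phorbol ester PMA for 24 h, which turns these cells macrophage-like. DCVC_LPS cells then received 5 µM DCVC for 24 h and, after the medium was replaced, 100 ng/mL LPS for 4 h. LPS cells had medium in place of DCVC, DCVC cells had no LPS, and Control cells had neither. DCVC is S-(1,2-dichlorovinyl)-L-cysteine, a cysteine conjugate of the solvent trichloroethylene, and LPS is the cell wall lipopolysaccharide of gram-negative bacteria. Each group held 6 libraries lettered A to F. No source says that these were separate cultures, so p-values measure the spread between these samples only, which may be technical.

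Type I interferons bind IFNAR1 and IFNAR2, whose cytoplasmic tails carry TYK2 and JAK1. The kinases phosphorylate STAT proteins, and STAT2 joins IRF9 in the complex ISGF3, which switches on antiviral genes. JAK2 serves receptors for granulocyte-macrophage colony-stimulating factor, interleukin-12 and interleukin-23 among others, STAT3 answers interleukin-6 and interleukin-10, STAT4 answers interleukin-12 and interferon, and STAT5A answers colony-stimulating factors. In macrophages, LPS induces interferon beta, which acts back on the cells through this route.

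The libraries held 18478618 to 30107819 reads in named genes. The deposited values are read counts divided by 1 factor per library, here called normalized counts, and their totals averaged 21831254 in DCVC_LPS, 29427331 in LPS, 17774466 in DCVC and 21135356 in Control. Rescaling every library to the same total ("equal totals") shifted the median log2 change of all tested genes to -0.50 between LPS and Control, against -0.03 on the deposited scale, to 0.36 between DCVC_LPS and LPS, against -0.07, to -0.33 between DCVC_LPS and DCVC, against -0.03, and to 0.22 between DCVC and Control, against -0.03. For the 9 transcripts, the equal-totals value is given wherever the direction or the call differs. All 11 macrophage markers were detected, with a summed level of 46709 to 50638 in DCVC_LPS, 48291 to 51104 in LPS, 57164 to 65194 in DCVC and 78373 to 93340 in Control. That sum differed between the groups, and its part in the results was not tested. Summed T cell markers lay at 127 to 2540 over all libraries, and only 1 of the 6, TRAC, averaged at least 10 in any group, with CD2 at 0 in every library. The lists for NK, B, fibroblast and epithelial cells summed to at most 346, 79.1, 74.0 and 35.3. In bulk RNA, fewer cells with a transcript and less transcript per cell cannot be told apart.

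LPS raised all 9 transcripts in cells without DCVC, and all 9 were lower in DCVC_LPS than in LPS. In limma's test over all 13900 genes at an adjusted p of 0.05, 9 of 9 members were raised between LPS and Control, where 37.8% of all genes were raised, and 0 were lowered, where 40.6% of all genes were. On equal totals 8 were raised (22.4% of all genes) and 0 lowered (59.5%), and TYK2 was the member not called. Between DCVC_LPS and LPS, 9 of 9 were lowered, where 39.4% of all genes were, and 0 were raised (33.3%). On equal totals 8 were lowered (21.9%) and 0 raised (54.5%), and IFNAR1 was the member not called. Both comparisons use the LPS libraries, so these counts are not independent of each other. The members were chosen with earlier results of these data known, so the counts are no independent evidence of a direction. The median log2 change of the members was 1.04 between LPS and Control, against -0.03 over all genes, and -1.30 between DCVC_LPS and LPS, against -0.07.

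The response to DCVC alone was mixed. Between DCVC and Control, 1 of 9 members was raised, where 27.5% of all genes were, and 5 were lowered, where 32.2% were. On equal totals 2 were raised and 4 lowered, where 46.1% and 20.1% of all genes were. Between DCVC_LPS and DCVC, 7 were raised (29.9% of all genes) and 1 was lowered (32.2%), and on equal totals 5 were raised (16.3%) and 2 lowered (52.7%). Between DCVC_LPS and Control, 5 were raised (37.2%) and 3 lowered (37.1%), and on equal totals 4 were raised (34.9%) and 3 lowered (38.9%). On the deposited scale, all 6 values of both groups lay apart for 9 members between LPS and Control (56.8% of all genes) and for 8 between DCVC_LPS and LPS (51.7%). They lay apart for 7 between DCVC_LPS and DCVC (45.1%), for 7 between DCVC_LPS and Control (54.0%) and for 4 between DCVC and Control (36.5%). Statements below that normalized counts of groups lay apart or overlapped also refer to this scale unless equal totals are named.

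**Figure D1:**
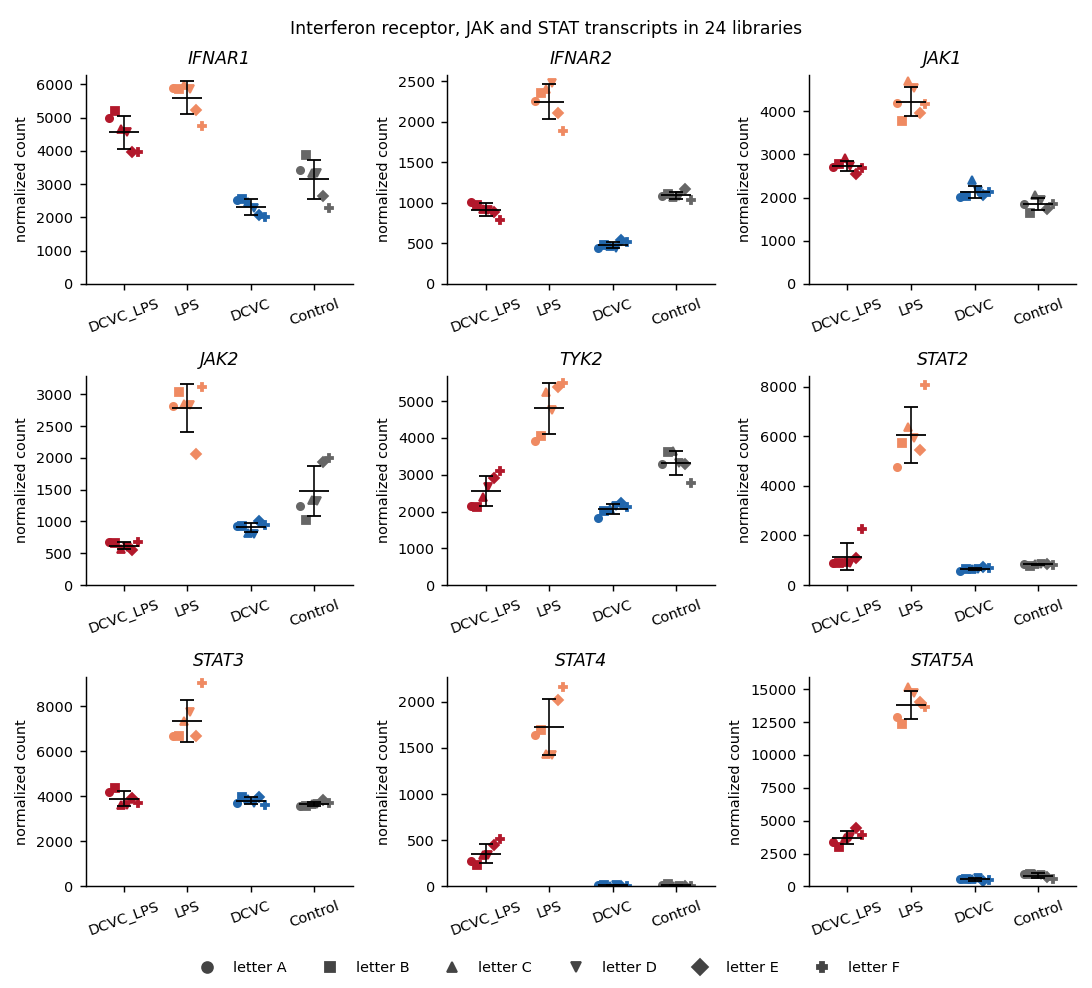
Normalized counts (vertical axes, from 0) of the 9 transcripts in the 6 libraries of each group, with the replicate letter as the symbol, and the mean and SD in black. The LPS mean is the highest for every transcript, with LPS and DCVC_LPS values overlapping for IFNAR1, and JAK2 is lowest in DCVC_LPS, where it runs from 559 to 682.

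LPS raised both receptor chains with DCVC and without it, also on equal totals. With DCVC, both chains were lower with and without LPS on the deposited scale, and on equal totals only IFNAR2 kept these calls. IFNAR1 (chromosome 21, 33324477 to 33359862, plus strand of GRCh38, bounds from GENCODE 29 as for all genes here) encodes the chain that carries TYK2. Its normalized counts ran from 3959.8 to 5186 (median 4609.6) in DCVC_LPS and from 4759 to 5986 (median 5869) in LPS. They ran from 2006 to 2541 (median 2366) in DCVC and from 2278 to 3861 (median 3337) in Control. On the deposited scale every library with LPS lay above every library without it, while DCVC_LPS overlapped LPS and DCVC overlapped Control. On equal totals Control B, at 4137, lay above LPS F, at 3770, and DCVC_LPS F, at 4048. The log2 change between DCVC_LPS and DCVC was 0.98 ± 0.10 (SE, adjusted p = 1.51e-08), a 1.97-fold rise. Between LPS and Control it was 0.85 ± 0.10 (SE, adjusted p = 6.46e-08), a 1.80-fold rise. IFNAR1 was 1.23-fold lower in DCVC_LPS than in LPS (log2 change -0.30 ± 0.10 SE, adjusted p = 0.0126), a direction that equal totals turned to 0.13 (adjusted p = 0.233). It was 1.34-fold lower in DCVC than in Control (-0.43 ± 0.10 SE, adjusted p = 0.00117), a call that equal totals ended at -0.18 (adjusted p = 0.115). Against Control, DCVC_LPS was higher by 0.55 ± 0.10 (SE, adjusted p = 4.7e-05). In each group the libraries lettered E and F held the lowest IFNAR1 values.

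IFNAR2 (chromosome 21, 33229901 to 33265675, plus strand) encodes the high-affinity chain, which carries JAK1. Its counts ran from 783 to 1014 (median 916) in DCVC_LPS and from 1885 to 2478 (median 2305) in LPS. They ran from 435 to 543 (median 470.3) in DCVC and from 1032 to 1169 (median 1083) in Control. None of the 4 groups overlapped another, and DCVC_LPS lay below untreated Control. The fall between DCVC_LPS and LPS was 2.46-fold (-1.30 ± 0.07 SE, adjusted p = 6.55e-14), and the fall between DCVC and Control was 2.28-fold (-1.19 ± 0.07 SE, adjusted p = 1.07e-12). LPS raised IFNAR2 both with DCVC (DCVC_LPS minus DCVC, 0.93 ± 0.07 SE, adjusted p = 3.19e-11) and without it (LPS minus Control, 1.04 ± 0.07 SE, adjusted p = 1.15e-12). Between DCVC_LPS and Control the log2 change was -0.26 ± 0.07 (SE, adjusted p = 0.00192), and -0.15 (adjusted p = 0.0864) from letters A and B alone. The annotated gene AP000295.1 spans all of IFNAR2 on the same strand, and the sources used here do not say how reads falling in both were assigned.

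The balance of both chains differed with DCVC. Read per kb of annotated exon within each library, the ratio of IFNAR1 to IFNAR2 was 3.65 ± 0.21 (mean ± SD, n = 6) in DCVC_LPS and 1.83 ± 0.056 in LPS, and it was 3.57 ± 0.6 in DCVC and 2.11 ± 0.39 in Control. All 12 libraries with DCVC lay at 2.79 or more, and all 12 without it at 2.55 or less. Such a ratio is the same under every scaling of a library.

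The Janus kinases parted in their response. JAK1 (chromosome 1, 64833229 to 64966504, minus strand), which serves interferon and interleukin-6 family receptors, ran from 2543 to 2913 (median 2723) in DCVC_LPS and from 3784 to 4701 (median 4183) in LPS. It ran from 2006 to 2409 (median 2084) in DCVC and from 1649 to 2071 (median 1854) in Control. The groups lay apart on the deposited scale except DCVC and Control, which overlapped. On equal totals DCVC (2506 to 3043) lay above Control (1767 to 2149), and DCVC_LPS (2676 to 2993) overlapped both DCVC and LPS (2880 to 3525). LPS raised JAK1 2.28-fold in cells without DCVC (1.19 ± 0.06 SE, adjusted p = 4.34e-15) and 1.28-fold in cells with it (0.36 ± 0.06 SE, adjusted p = 1.63e-05), and equal totals ended the second call at 0.06 (adjusted p = 0.355). JAK1 was 1.55-fold lower in DCVC_LPS than in LPS (-0.63 ± 0.06 SE, adjusted p = 1.75e-09) and 1.48-fold higher in DCVC_LPS than in Control (0.56 ± 0.06 SE, adjusted p = 9.58e-09). On the deposited scale it was the only member raised by DCVC alone (on equal totals STAT3 was too), 1.15-fold (0.20 ± 0.06 SE, adjusted p = 0.00606), with 6 of 6 letters in that direction. Letters E and F alone gave 0.21 (adjusted p = 0.0586).

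JAK2 (chromosome 9, 4984390 to 5128183, plus strand) was, on the deposited scale, the only member for which LPS raised the level without DCVC and lowered it with DCVC (on equal totals STAT3 did so too). Its counts ran from 559 to 682 (median 623) in DCVC_LPS and from 2064 to 3117 (median 2836) in LPS. They ran from 809 to 1005 (median 925) in DCVC and from 1030.4 to 1993 (median 1333) in Control. No group overlapped another on the deposited scale, and every DCVC_LPS library lay below every other library. On equal totals Control (1104 to 2208) overlapped both DCVC (1026 to 1280) and LPS (1643 to 2469). The log2 change was -0.54 ± 0.13 (SE, adjusted p = 0.000623) between DCVC_LPS and DCVC, and 0.94 ± 0.13 (SE, adjusted p = 2.73e-07) between LPS and Control. DCVC_LPS was 4.45-fold below LPS (-2.15 ± 0.13 SE, adjusted p = 2.67e-13) and 2.31-fold below Control (-1.21 ± 0.13 SE, adjusted p = 5.05e-09), and DCVC was 1.59-fold below Control (-0.67 ± 0.13 SE, adjusted p = 8.1e-05). The Control libraries E and F held 1928 and 1993, against 1030.4 to 1345 in A to D. The log2 rise between LPS and Control was 1.37 from letters A and B, 1.09 from C and D, and 0.37 (adjusted p = 0.0936) from E and F. The log2 change between DCVC_LPS and LPS was -2.13, -2.29 and -2.04 in the same pairs.

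TYK2 (chromosome 19, 10350529 to 10380676, minus strand), the kinase bound to IFNAR1 and to the interleukin-12 receptor, ran from 2124 to 3089 (median 2532) in DCVC_LPS and from 3923 to 5499 (median 5009) in LPS. It ran from 1821 to 2228 (median 2102) in DCVC and from 2771 to 3646 (median 3306) in Control. On the deposited scale LPS lay above every other group, DCVC lay below Control, and DCVC_LPS overlapped both DCVC and Control. On equal totals LPS (2963 to 4356) overlapped Control (3071 to 3874) and DCVC_LPS (2189 to 3158). TYK2 was 1.88-fold lower in DCVC_LPS than in LPS (-0.91 ± 0.10 SE, adjusted p = 1.11e-08) and 1.6-fold lower in DCVC than in Control (-0.68 ± 0.10 SE, adjusted p = 2.67e-06). Its LPS responses depended on the scaling: 0.29 ± 0.10 (SE, adjusted p = 0.0127) with DCVC and 0.53 ± 0.10 (SE, adjusted p = 3.21e-05) without it became -0.0048 (adjusted p = 0.969) and 0.05 (adjusted p = 0.652) on equal totals. The fall between DCVC_LPS and Control (-0.39 ± 0.10 SE, adjusted p = 0.00114) was -0.01 (adjusted p = 0.943) from letters E and F alone.

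Per kb within a library, the ratio of JAK1 to JAK2 was 4.31 ± 0.44 (mean ± SD, n = 6) in DCVC_LPS and 1.51 ± 0.24 in LPS. It was 2.31 ± 0.34 in DCVC and 1.29 ± 0.31 in Control. The lowest DCVC_LPS ratio, 3.85, lay above the highest of the DCVC libraries, 2.85, and all DCVC ratios lay above all Control ratios. LPS and Control ratios overlapped. The ratio of JAK1 to TYK2 was 1.17 ± 0.21 in DCVC_LPS, 0.955 ± 0.13 in LPS, 1.11 ± 0.092 in DCVC and 0.603 ± 0.075 in Control, where all 6 libraries lay below every library of the other groups.

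**Figure D2:**
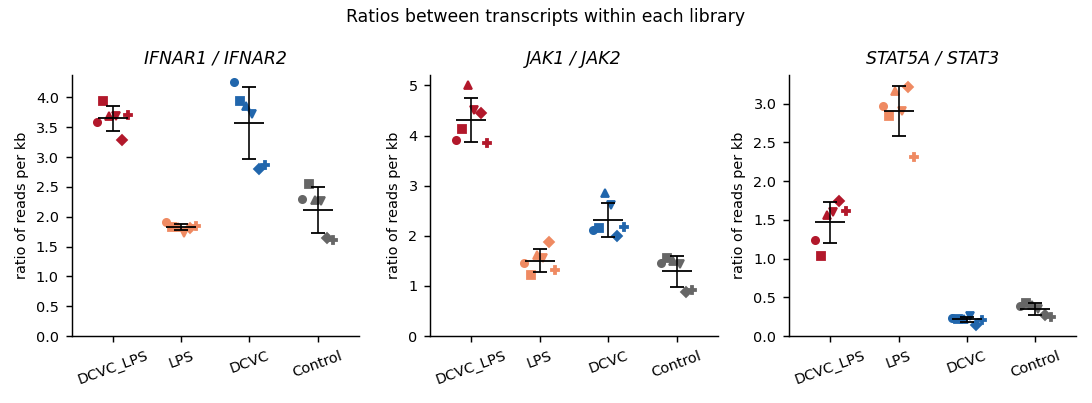
Ratios of reads per kb between pairs of transcripts within each library (vertical axes, from 0), with replicate letters as symbols as in the plot of normalized counts, and the mean and SD in black. IFNAR1 over IFNAR2 is higher in the groups with DCVC, JAK1 over JAK2 is highest in DCVC_LPS (mean 4.31), and STAT5A over STAT3 is highest in LPS (mean 2.90).

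Among the STATs, STAT4 and STAT5A had the largest LPS responses of the 9 members, and the LPS change of STAT3 in DCVC-treated cells was not called on the deposited scale with all letters. The bases before a transcription start of STAT5A, STAT4 and STAT2, the members with the largest log2 changes between LPS and Control, are shown from RefSeq on GRCh38.p14, with matches to the searched motifs in capitals where there are any (for STAT2, the 200 bases of its window that lie outside the annotated gene):
STAT5A, start 1 (chr17:42287189-42287438, plus strand): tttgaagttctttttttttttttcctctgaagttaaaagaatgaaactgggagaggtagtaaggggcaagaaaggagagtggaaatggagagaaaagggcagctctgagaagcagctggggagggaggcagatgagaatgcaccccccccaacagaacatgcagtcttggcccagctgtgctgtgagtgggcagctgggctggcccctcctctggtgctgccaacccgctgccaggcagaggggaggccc
STAT5A, around the match before start 3 (chr17:42288269-42288298, plus strand): tgggactcccGGGGGACCCCgccgtcgggg
STAT4, start 1 (chr2:191151597-191151846, minus strand): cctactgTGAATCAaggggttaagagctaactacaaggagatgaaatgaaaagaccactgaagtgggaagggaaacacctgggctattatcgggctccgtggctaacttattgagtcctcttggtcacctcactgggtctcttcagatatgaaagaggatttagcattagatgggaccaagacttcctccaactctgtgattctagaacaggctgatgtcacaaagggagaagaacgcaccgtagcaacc
STAT2 (chr12:56360158-56360357, minus strand): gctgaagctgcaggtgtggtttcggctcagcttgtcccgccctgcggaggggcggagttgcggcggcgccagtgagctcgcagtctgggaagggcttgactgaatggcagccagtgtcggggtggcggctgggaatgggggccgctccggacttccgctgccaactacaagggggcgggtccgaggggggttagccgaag
Both strands of the 250 bases before each start were searched for the interferon-gamma-activated site TTCNNNGAA, the interferon-stimulated response element (GAAA and a second GAAA, parted by any 2 bases), the AP-1 site TGANTCA, the antioxidant response element TGACNNNGC and the NF-kB consensus. These were found in 6.57%, 3.02%, 6.57%, 10.9% and 5.21% of all 35116 windows of that length. The table had 17 windows for 8 members and none for IFNAR2. The 3 matches were an NF-kB match before start 3 of STAT5A, an AP-1 match before start 1 of STAT4 and an antioxidant response element match, TGACGTCGC, before start 3 of JAK1. A match describes letters in these windows only.

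STAT2 (chromosome 12, 56341597 to 56360155, minus strand), the STAT particular to interferon signalling, ran from 874 to 2259 (median 902) in DCVC_LPS and from 4773 to 8059 (median 5829) in LPS. It ran from 567 to 716 (median 642) in DCVC and from 767 to 866 (median 851) in Control. LPS lay far above the other groups, and 1 DCVC_LPS library, F, stood apart at 2259, against 874 to 1082 in the other 5. STAT2 was 5.55-fold lower in DCVC_LPS than in LPS (-2.47 ± 0.16 SE, adjusted p = 2.01e-12), and the log2 change was -2.69 without DCVC_LPS replicate F. LPS raised it 7.17-fold without DCVC (2.84 ± 0.16 SE, adjusted p = 4.01e-14) and 1.66-fold with it (0.73 ± 0.16 SE, adjusted p = 0.000384), and without DCVC_LPS replicate F the second log2 change was 0.52. Between DCVC_LPS and Control the log2 change of 0.37 ± 0.16 (SE, adjusted p = 0.0439) passed the threshold narrowly, and it lost its call on equal totals, at 0.32 (adjusted p = 0.0798), and without that library, at 0.16 (adjusted p = 0.136). Between DCVC and Control it was -0.36 ± 0.16 (SE, adjusted p = 0.0572) and was not called. On the deposited scale all 6 DCVC libraries lay below all 6 Control libraries. With the replicate letter as a block the change was called (adjusted p = 0.0202), and likewise without DCVC_LPS replicate F (adjusted p = 0.00116). Equal totals brought it to -0.12 (adjusted p = 0.549), and there DCVC (up to 912) overlapped Control (from 821).

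STAT3 (chromosome 17, 42313324 to 42388568, minus strand), which carries interleukin-6 and interleukin-10 signals, ran from 3597 to 4379.7 (median 3809) in DCVC_LPS and from 6664 to 9019 (median 7015) in LPS. It ran from 3611 to 3995 (median 3793) in DCVC and from 3558 to 3829 (median 3663) in Control. LPS lay apart at the top on the deposited scale, and the other 3 groups overlapped each other. On equal totals LPS (5037 to 7144) overlapped DCVC (4638 to 5088), and DCVC lay above DCVC_LPS (3736 to 4512) and Control (3786 to 4107). LPS raised STAT3 1.99-fold without DCVC (1.00 ± 0.07 SE, adjusted p = 6.21e-13). With DCVC the LPS change was 0.03 ± 0.07 (SE, adjusted p = 0.708), with a 95% interval of -0.11 to 0.17, and 3 of 6 letters were higher in DCVC_LPS. Letters A and B alone gave 0.15 (adjusted p = 0.0405), a called rise, and equal totals gave -0.27 (adjusted p = 0.00121), a fall. DCVC_LPS was 1.88-fold below LPS (-0.91 ± 0.07 SE, adjusted p = 9.68e-12), and its log2 change from Control was 0.09 ± 0.07 (SE, adjusted p = 0.237). Between DCVC and Control the log2 change was 0.06 ± 0.07 (SE, adjusted p = 0.471) with an interval of -0.08 to 0.19, and 0.31 (adjusted p = 0.00035) on equal totals.

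STAT4 (chromosome 2, 191029576 to 191151596, minus strand), known best from T and NK cells, was close to absent without LPS, with 70 reads summed over the 6 DCVC libraries and 72 over the 6 Control libraries. Its counts ran from 229 to 517 (median 338) in DCVC_LPS and from 1422 to 2159 (median 1669.5) in LPS. They ran from 4.05 to 16.2 (median 11.2) in DCVC and from 4.73 to 23.9 (median 6.59) in Control. Both LPS groups lay above both groups without LPS, and DCVC_LPS lay wholly below LPS. The log2 change was 5.01 ± 0.32 (SE, adjusted p = 1.33e-12) between DCVC_LPS and DCVC, and 7.39 ± 0.32 (SE, adjusted p = 1.86e-16) between LPS and Control, on a log2(value + 1) scale that understates changes of low genes. DCVC_LPS was 4.95-fold below LPS (-2.31 ± 0.32 SE, adjusted p = 6.75e-07) and differed from Control by 5.08 ± 0.32 (SE, adjusted p = 4.43e-13). Between DCVC and Control the log2 change was 0.07 ± 0.32 (SE, adjusted p = 0.873), with a wide interval of -0.60 to 0.73 and no steady sign across settings. From letters A and B alone it was -0.45 (adjusted p = 0.0495), a called fall. The LPS change without DCVC was 6.27 from letters A and B, 7.74 from C and D, and 8.16 from E and F. The antisense-side transcript AC067945.3 overlaps STAT4 by 2739 bases, and the sources used here do not say whether counting used the strand. The summed T cell markers were lower in the libraries with LPS, at 127 to 333, than in those without, at 1382 to 2540. The summed NK cell markers ran from 119 to 171 in DCVC_LPS and from 229 to 346 in LPS. They ran from 124 to 189 in DCVC and from 155 to 285 in Control. The part of either marker list in the STAT4 result was not tested.

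STAT5A (chromosome 17, 42287547 to 42311943, plus strand), which carries signals of colony-stimulating factors, was the most abundant member per kb in LPS, at 2397 ± 186 normalized counts per kb. Its counts ran from 2966 to 4444 (median 3745) in DCVC_LPS and from 12338 to 15173 (median 13811) in LPS. They ran from 387 to 612 (median 569.8) in DCVC and from 579 to 985 (median 880.5) in Control. The groups lay apart except DCVC and Control, which overlapped. LPS raised STAT5A 16.9-fold without DCVC (4.08 ± 0.12 SE, adjusted p = 1.91e-19) and 6.94-fold with it (2.79 ± 0.12 SE, adjusted p = 9.3e-16). DCVC_LPS was 3.75-fold below LPS (-1.91 ± 0.12 SE, adjusted p = 1.38e-12) and 4.51-fold above Control (2.17 ± 0.12 SE, adjusted p = 5.19e-14), and DCVC 1.54-fold below Control (-0.62 ± 0.12 SE, adjusted p = 0.000131). Of 4933 stretches of 50 bases in STAT5A transcripts, 507 (10.3%) also occur in STAT5B, so reads there could be split between both genes. STAT5B, its near copy, averaged 1207 ± 59.2 in DCVC_LPS, 2675 ± 124 in LPS, 1122 ± 111 in DCVC and 1421 ± 152 in Control. The ratio of STAT5A to STAT5B per kb was 3.42 ± 0.36 in DCVC_LPS, 5.78 ± 0.45 in LPS, 0.531 ± 0.045 in DCVC and 0.647 ± 0.068 in Control. STAT5A was thus above STAT5B in all 12 libraries with LPS and below it in all 12 without.

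Whether the LPS change was the same with DCVC as without it was tested as an interaction. It was called below 0 for 6 of the 9 members, and for 23.7% of all genes, and called above 0 for 0 members, and for 22.0% of all genes. On equal totals it was below 0 for 6 (16.1% of all genes) and above 0 for 0 (33.1%). As all 9 members were raised by LPS without DCVC, an interaction below 0 is for them a smaller rise or a fall with DCVC. Among all genes, many of which LPS lowered, it can also be a larger fall. The interaction was -2.37 ± 0.45 (SE, adjusted p = 0.000156) for STAT4, -2.11 ± 0.23 (SE, adjusted p = 9.88e-08) for STAT2, and -1.49 ± 0.18 (SE, adjusted p = 4.06e-07) for JAK2. It was -1.29 ± 0.17 (SE, adjusted p = 2.05e-06) for STAT5A, -0.97 ± 0.09 (SE, adjusted p = 1.36e-08) for STAT3 and -0.83 ± 0.09 (SE, adjusted p = 4.17e-08) for JAK1. For the receptor chains and TYK2 it was not called: 0.13 ± 0.15 (SE, adjusted p = 0.524) with an interval of -0.18 to 0.43 for IFNAR1, -0.11 ± 0.10 (SE, adjusted p = 0.392) with -0.32 to 0.10 for IFNAR2 (0.071 on equal totals), and -0.24 ± 0.14 (SE, adjusted p = 0.174) with -0.52 to 0.05 for TYK2. From letters C and D alone the TYK2 interaction was called, at -0.27 (adjusted p = 0.0293), and from letters A and B that of IFNAR1, at 0.31 (adjusted p = 0.0152).

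On the linear scale, the gain in mean normalized count from LPS in DCVC-treated cells was set against the gain in cells without DCVC, and this share depended on the scaling. For IFNAR1 it was 91.2% on the deposited scale (84.8% to 95.1% with 1 letter at a time left out) and 189.6% on equal totals. For IFNAR2 it was 37.5% and 60.2%, for JAK1 25.2% and 9.04%, and for TYK2 32.6% and 7.89%. The last value sets a gain of 12.4 against one of 157, and neither TYK2 change was called on equal totals. STAT3 stood at 2.39% (0.299% to 4.13% with 1 letter left out) on the deposited scale and at -46.7% on equal totals, where its sign turned. JAK2 was below 0 on both, at -21.8% and -91.9%. The scalings gave closer values for STAT2, 9.66% (6.01% to 10.7% with 1 letter left out, the lowest without letter F) and 9.72%, for STAT4, 20.2% and 27.0%, and for STAT5A, 24.4% and 32.4%. IFNAR1 had the highest share on both scales.

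**Figure D3:**
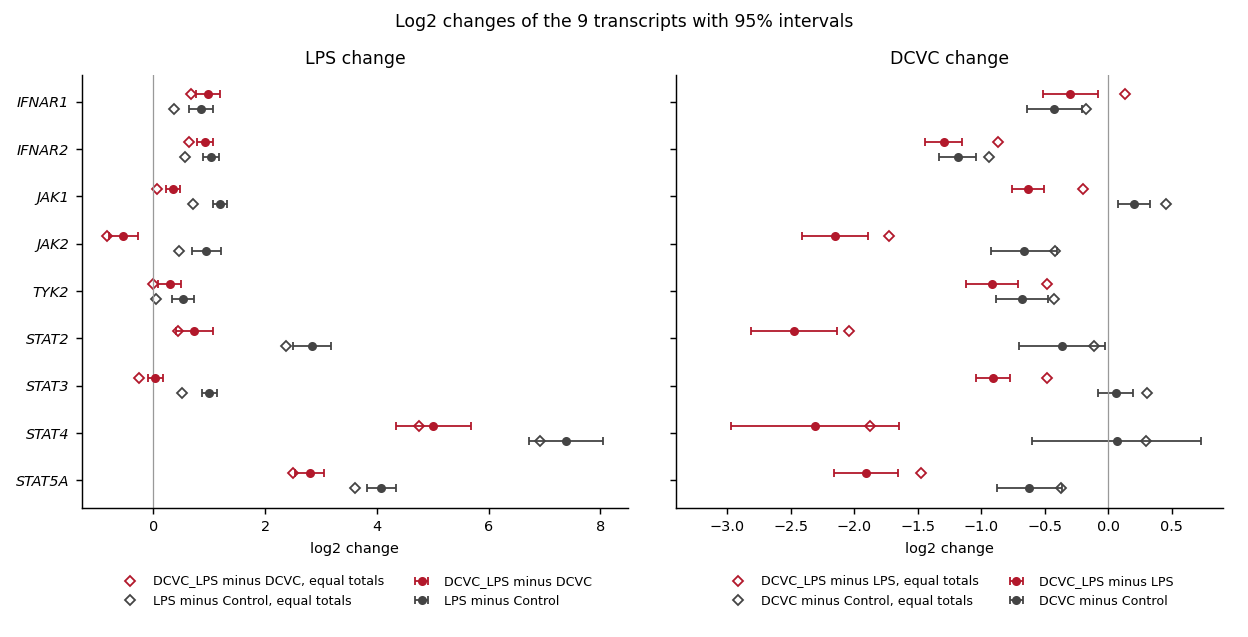
Log2 changes (horizontal axes) of the 9 transcripts from LPS (left) and from DCVC (right), with filled points and bars for limma estimates and 95% intervals on the deposited scale and open diamonds for equal totals. Red marks the change in cells that also had the other agent, DCVC on the left and LPS on the right. For IFNAR1 and IFNAR2 the intervals of the LPS changes with and without DCVC overlap, while for JAK2 they lie on opposite sides of 0.

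The order of the members by normalized count per kb differed between groups. In DCVC_LPS, IFNAR1 was first at 722 ± 80.4 (mean ± SD, n = 6), ahead of STAT5A at 642 ± 86.6, with overlapping values. In LPS, STAT5A stood apart at the top and STAT2 followed at 990.0 ± 183. STAT2 overlapped IFNAR1 at 888 ± 78.4, STAT3 at 835 ± 106 and TYK2 at 711 ± 102. In DCVC, STAT3 was first at 433 ± 18.0, above all IFNAR1 values (367 ± 37.1). In Control, IFNAR1 at 499 ± 92.0 and TYK2 at 490.3 ± 46.6 overlapped at the top, and STAT3 at 416 ± 11.1 overlapped both. STAT4 was last in all 4 groups, and in LPS its values overlapped those of JAK2. Within a library, STAT5A per kb was 1.47 ± 0.27 times STAT3 in DCVC_LPS and 2.90 ± 0.32 times in LPS, against 0.215 ± 0.036 in DCVC and 0.347 ± 0.075 in Control. STAT3 per kb was 2.66 ± 0.82 times STAT2 in DCVC_LPS, 0.852 ± 0.074 times in LPS, 4.10 ± 0.31 times in DCVC and 3.06 ± 0.13 times in Control. LPS was thus the only group in which STAT2 exceeded STAT3 in every library.

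The ligands that act through these proteins moved with LPS. IFNB1, the interferon beta gene, had 43 reads summed over DCVC_LPS and 314 over LPS, and 0 in every DCVC and Control library. IFNA1 and IFNA2 had 0 reads in all 24 libraries. Of the 12 tested cytokine ligands out of 17 listed, 12 were raised between LPS and Control (median log2 change 6.56), where 37.8% of all genes were. Between DCVC_LPS and LPS 11 were lowered (median -3.07), where 39.4% of all genes were, and 10 on equal totals (21.9%). Ligands with next to no reads outside LPS, such as IFNB1, IL10 and CSF2, passed the filter on low values only through their LPS libraries. For such genes a rise from Control to LPS was fixed by the filter, and largely also a level below LPS in DCVC_LPS. The counts of raised and lowered ligands are thus no evidence of a direction. CSF2, a ligand whose receptor uses JAK2 and STAT5A, averaged 26.6 ± 4.85 in DCVC_LPS and 557 ± 115 in LPS, with 1 read in the 12 libraries without LPS. IL10, which signals through JAK1, TYK2 and STAT3, had 4 reads summed over DCVC_LPS, 302 over LPS, 4 over DCVC and 0 over Control. IL6, a STAT3 ligand, averaged 40.7 ± 21.8 in DCVC_LPS and 2504 ± 571 in LPS (log2 change -5.99 ± 0.26 SE, adjusted p = 1.27e-15). IL23A, whose receptor uses JAK2 and TYK2, averaged 2111 ± 792 in DCVC_LPS and 28.4 ± 7.42 in DCVC (6.11 ± 0.29 SE, adjusted p = 5.52e-15).

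Over all genes, 37.8% were raised and 40.6% lowered between LPS and Control (22.4% and 59.5% on equal totals), and 33.3% were raised and 39.4% lowered between DCVC_LPS and LPS (54.5% and 21.9% on equal totals). The counts of the receptor chains, signalling proteins and inhibitors stand beside these shares. Of 19 tested chains that use JAK kinases out of 25 listed, 7 were raised and 5 lowered between LPS and Control (median 0.12), so that the raised share was close to that of all genes, and 6 and 7 on equal totals (median -0.36). Between DCVC_LPS and LPS 3 were raised and 12 lowered (median -0.47), and 7 and 8 on equal totals (median -0.04). IL10RA, the interleukin-10 receptor chain that binds JAK1, averaged 3776 ± 895 in DCVC_LPS and 16729 ± 3235 in LPS (-2.15 ± 0.13 SE, adjusted p = 4.26e-13). IL12RB1, the chain that binds TYK2, was higher in DCVC_LPS, at 569.6 ± 31.6, than in LPS, at 300.3 ± 39.5 (0.93 ± 0.09 SE, adjusted p = 3.28e-09). Both interferon gamma receptor chains parted after LPS in DCVC-treated cells. IFNGR2, which binds JAK2, averaged 19533 ± 1586 in DCVC_LPS and 3801 ± 682 in DCVC (2.38 ± 0.16 SE, adjusted p = 2.23e-12), whereas IFNGR1, which binds JAK1, averaged 2973 ± 147 and 6301 ± 898 in the same groups (-1.07 ± 0.19 SE, adjusted p = 2.32e-05).

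Of the 9 listed interferon receptor chains and JAK-STAT proteins outside the members, which include both interferon gamma receptor chains, 7 were tested. Between LPS and Control 6 were raised and 1 was lowered (median 0.92), and 4 and 2 on equal totals (median 0.44). Between DCVC_LPS and LPS 0 were raised and 4 lowered (median -0.52), and 2 and 3 on equal totals (median -0.10). IRF9, the partner of STAT2 in ISGF3, averaged 170.5 ± 46.9 in DCVC_LPS, 207 ± 18.0 in LPS, 24.4 ± 5.22 in DCVC and 30.4 ± 8.31 in Control, and the first 2 groups overlapped. Its LPS change was 2.74 ± 0.17 (SE, adjusted p = 1.09e-12) with DCVC and 2.76 ± 0.17 (SE, adjusted p = 2.58e-13) without it.

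Of 19 tested inhibitors of JAK-STAT signalling out of 21 listed, 11 were raised and 7 lowered between LPS and Control (median 0.28), the lowered share being close to that of all genes, and 7 and 10 on equal totals (median -0.20). Between DCVC_LPS and LPS 4 were raised and 10 lowered (median -0.27), and 9 and 6 on equal totals (median 0.16). SOCS3, which is induced by STAT3 and blocks JAK kinases, averaged 1047 ± 283 in DCVC_LPS, 10144 ± 1539.9 in LPS, 9.66 ± 2.60 in DCVC and 16.4 ± 6.65 in Control. Its log2 change between DCVC_LPS and LPS was -3.30 ± 0.23 (SE, adjusted p = 6.4e-12), with the groups apart. PTPN1, a phosphatase that acts on JAK2 and TYK2, averaged 3225 ± 112 in DCVC_LPS and 5611 ± 209 in LPS (-0.80 ± 0.05 SE, adjusted p = 1.07e-12).

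The 22 listed target genes of ISGF3, like STAT2, summed highest in LPS and next in DCVC_LPS. All 22 were raised between LPS and Control (median log2 change 4.88), and all 22 were lowered between DCVC_LPS and LPS (median -2.98), also on equal totals (medians 4.40 and -2.55) and also without DCVC_LPS replicate F (medians 4.88 and -3.29). Of all genes, 37.8% were raised in the first comparison and 39.4% lowered in the second (22.4% and 21.9% on equal totals). Between DCVC_LPS and DCVC 21 were raised (median 2.14), where 29.9% of all genes were, and 18 on equal totals (16.3%). Between DCVC and Control 2 were raised and 5 lowered, shares below the 27.5% and 32.2% of all genes. These counts became 4 and 8 without DCVC_LPS replicate F. On equal totals they were 6 and 3, where 46.1% and 20.1% of all genes were raised and lowered. The interaction was called below 0 for all 22 (median -2.62), against 23.7% of all genes. From letters E and F alone it was called below 0 for 5 of 22 (median -2.22), in a fit that called 11.4% of all genes so, and from the other letter pairs for all 22. The summed normalized count of the 22 ran from 17409 to 67766 in DCVC_LPS, from 122127 to 217545 in LPS, from 8804 to 12241 in DCVC and from 10483 to 14822 in Control. DCVC_LPS library F held the 67766, and the other 5 held 17409 to 28241. That library was also the highest of its group in IFNB1, at 13.6 against 1.08 to 7.53, and in IRF9, at 256 against 127 to 177. IFIH1, an RNA sensor, was raised by 4.11 ± 0.17 (SE, adjusted p = 7.06e-17) on the log2 scale between LPS and Control, and HERC5, a ligase of the ubiquitin-like ISG15, had a log2 change of -4.90 ± 0.27 (SE, adjusted p = 9.31e-14) between DCVC_LPS and LPS.

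**Figure D4:**
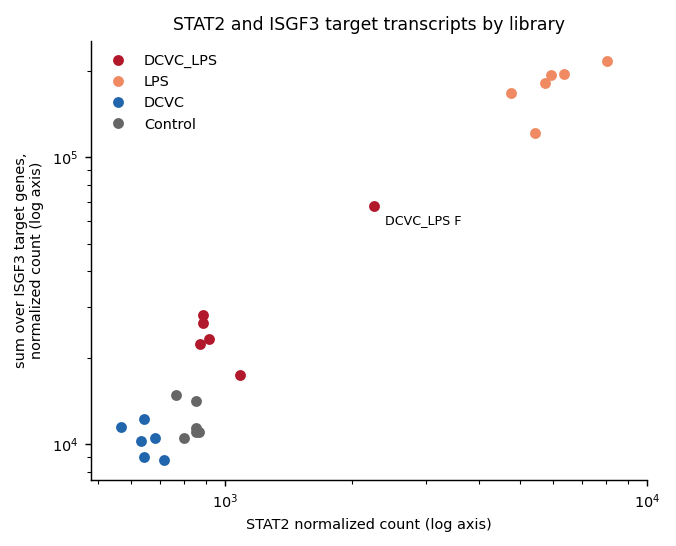
STAT2 normalized count (horizontal, log axis) against the summed normalized count of the 22 ISGF3 target genes (vertical, log axis), 1 point per library. DCVC_LPS replicate F lies between the other 5 DCVC_LPS libraries and the LPS libraries on both axes, at 2259 and 67766.

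Of the 16 listed target genes of STAT3 and STAT5, 15 were raised and 1 lowered between LPS and Control (median 2.00). Of all genes 37.8% and 40.6% were. On equal totals 14 were raised and 1 lowered (median 1.52), where 22.4% and 59.5% of all genes were. Between DCVC_LPS and LPS 1 was raised and 12 lowered (median -0.81), where 33.3% and 39.4% of all genes were. On equal totals 3 were raised and 9 lowered (median -0.38), where 54.5% and 21.9% of all genes were. PIM2, a survival kinase, averaged 2782 ± 231 in DCVC_LPS and 247 ± 37.5 in DCVC (3.49 ± 0.11 SE, adjusted p = 2.5e-18). BCL2L1, an inhibitor of apoptosis, averaged 1373 ± 98.7 in DCVC_LPS and 4958 ± 438 in LPS (-1.85 ± 0.09 SE, adjusted p = 5.51e-15). FOS, an AP-1 subunit, went the other way, at 439.8 ± 97.9 in DCVC_LPS and 214 ± 34.0 in LPS (1.02 ± 0.14 SE, adjusted p = 8.17e-07). Both target lists, like the members and all other gene lists here, were chosen with earlier results of these data known. Their counts thus describe these genes and are no independent evidence of a direction.

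The genes whose log2 levels ran most like each member over the 24 libraries, among 11409 genes with a mean of at least 50, differed between members. AHR was closest to IFNAR1 (Pearson r = 0.985) and NLRP3 to IFNAR2 (0.980). TBC1D10A was closest to JAK1 (0.983), RNF144A to JAK2 (0.966) and PFKL to TYK2 (0.964). WARS1 was closest to STAT2 (0.987), with the interferon-induced GTPase gene GBP4 next (0.986), and PPM1K to STAT3 (0.964). RNF144B was closest to STAT4 (0.992), with LAMP3 next (0.991), and CFLAR to STAT5A (0.995), with CD40 at 0.994. The 24 libraries share 4 group means, so these are descriptions of shared differences between groups.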

How the data were processed

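Poly-A RNA libraries of PMA-treated THP-1 cells were analysed, 6 in each of 4 groups. Per the submitters' processing notes, which assign no roles, the tools were featureCounts 1.6.1, STAR, DESeq2 1.24.0 under R 3.6.0, MultiQC 0.9 and FastQC 0.11.5, and the genome was hg38. Which gene models were counted, with what strand rule and how reads of several hits were treated, was not stated in the sources used here. What the authors deposited is 1 table of signal, that is counts divided by a factor for each library. This was read from the values: 100% of them were whole multiples of 1 read within 0.1 read.

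Of 58381 entries, 19595 without a gene name (1.01% of the values) were left out, and 51 symbols on 2 entries were summed. Because the unit was normalized, the branch of the design for such values was used: limma 3.58.1 (R 4.3.3), with trended empirical Bayes, on log2(value + 1), over 13900 named genes with a mean of at least 10, with 1 mean per group, 20 residual degrees of freedom and Benjamini-Hochberg adjustment over all of them. The interaction is the LPS change with DCVC minus that without it. Per-kb levels divide by the union of exons in GENCODE 29, which may not be the annotation used for counting. Alternatives, 41 in all, included edgeR 4.0.16 quasi-likelihood tests on the recovered reads (with TMM, 5263 genes raised and 5581 lowered between LPS and Control, against 5253 and 5639 with limma), equal totals, pseudocounts of 0.5 and 10, no filter, and left-out letters and libraries. The fit was tested on simulated data.

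The labels do not say what the letters A to F mark. All 36 correlations between same-letter libraries of different groups, of their deviations from the group means, exceeded 0.1 (0.134 to 0.539, median 0.330), so the letters were taken to pair samples. The main fit held no term for the letter, so its SEs and p-values do not use this pairing. With the letter as a block in limma, the adjusted p for IFNAR1 between DCVC_LPS and LPS was 1.04e-05, against 0.0126 in the main fit. Of the 54 tests of single members, that block changed 1 call, STAT2 between DCVC and Control. Neighbouring letters (A with B, C with D, E with F) also resembled each other, at a median of 0.286, against -0.114 between letters of different such pairs.

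The members and gene lists were chosen with earlier results of these data known. Besides the 9 members, genes were named by a rule: from each list and comparison up to 2 raised and 2 lowered genes with the smallest adjusted p, and the 3 genes most correlated with each member. Not every such gene is described. IFNB1, IFNA1 and IFNA2 were named outside this rule, after their values were seen, as were list-gene levels given for further groups. Promoter windows are from RefSeq (GRCh38.p14).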

Additional observations from a re-analysis of the deposited data

Results flagged for a closer look

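In 36 sets of 6 libraries (9 members in 4 groups), a library stood apart from the others of its group by a gap over Dixon's 95% limit for 6 values in 2 sets. STAT2 in DCVC_LPS was highest in replicate F, at 2259 normalized counts. JAK2 in LPS was lowest in replicate E, at 2064. Chance alone would mark about 1 in 20 such sets. The same DCVC_LPS library was also the highest of its group in the summed ISGF3 targets, IFNB1 and IRF9, and the cause was not tested.

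The LPS change differed between cells with DCVC and cells without it for 6 members in the interaction test of limma. The log2 differences were -2.37 for STAT4 (adjusted p = 0.000156), -2.11 for STAT2 (adjusted p = 9.88e-08) and -1.49 for JAK2 (adjusted p = 4.06e-07). They were -1.29 for STAT5A (adjusted p = 2.05e-06), -0.97 for STAT3 (adjusted p = 1.36e-08) and -0.83 for JAK1 (adjusted p = 4.17e-08).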

How the results depend on the processing

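Of 54 tests of single members, 36 kept direction and call under all alternatives run. Members raised between DCVC and Control numbered 1, but 2 on equal totals and 0 from letters E and F. Members lowered between DCVC_LPS and DCVC numbered 1, but 2 on equal totals, and 1 member, IFNAR1 (0.31), had a larger LPS change with DCVC from letters A and B. STAT4 between DCVC and Control became -0.031 and -0.071 in edgeR (TMM and deposited factors), -0.45 from letters A and B (called, adjusted p = 0.0495), and -0.10 to 0.32 with letters or libraries left out. STAT3 between DCVC_LPS and DCVC became -0.021 in edgeR with TMM, -0.27 on equal totals, -0.068 from letters C and D, 0.15 from letters A and B (called, adjusted p = 0.0405), and -0.0041 to 0.054 with letters or libraries left out. STAT3 between DCVC_LPS and Control became -0.018 from letters C and D, and 0.26 from letters A and B (called, adjusted p = 0.00119). Equal totals gave 0.13 for IFNAR1 between DCVC_LPS and LPS, -0.0048 for TYK2 between DCVC_LPS and DCVC, and 0.071 for the IFNAR2 interaction. The IFNAR2 interaction was 0.054 from letters A and B, and the IFNAR1 interaction -0.068 from letters E and F. The TYK2 interaction was called from letters C and D (-0.27, adjusted p = 0.0293). STAT2 between DCVC_LPS and Control lost its call in 17 of 41 alternatives, with adjusted p from 0.0155 to 0.333, and its log2 change was 0.15 to 0.44 with letters or libraries left out. The replicate block changed 1 call of the 54, STAT2 between DCVC and Control (adjusted p = 0.0202). The causes were not tested. Levels of STAT4 without LPS rest on 70 reads over the DCVC libraries and 72 over the Control libraries.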
